A study of Mus musculus with 6 samples.

Results

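Glutathione is the main small thiol of animal cells. It is built by glutamate-cysteine ligase (catalytic subunit Gclc, modifier subunit Gclm) and glutathione synthetase (Gss), and glutathione reductase (Gsr) returns its oxidized form to the reduced one. Glutathione transferases (GST, in soluble classes alpha, mu, pi, theta, omega, zeta and kappa, and membrane-bound MGST) join it to reactive compounds, and glutathione peroxidases (GPX) use it to reduce peroxides. The genes of these enzymes were read in immortalized murine embryonic fibroblasts (MEF), cells grown out of mouse embryos, that were wild type (WT MEF) or lacked one of the RNA-binding proteins TIA1 (TIA1 KO MEF) or TIAR, the product of Tial1 (TIAR KO MEF). Array probes were taken by gene symbol: every probe named Gst followed by a class letter and a number, Mgst1 to Mgst3, Gpx1 to Gpx8, Gclc, Gclm, Gsr or Gss. The symbols matched 53 probes and 35 genes of 55681 probes and 34797 gene names.

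Each group had 2 one-colour arrays, 6 in all, on 1 slide, with no treatment. WT MEF carried the strain label W4, TIA1 KO MEF BALB/c and TIAR KO MEF C57BL/6, so the effect of a genotype cannot be told apart from that of a strain or a cell line. Both TIA1 KO arrays lay in row 2 of the slide and the other 4 in row 1, so the position on the slide is confounded with TIA1 genotype and the effects cannot be told apart. The values are normalized log2 intensities. A fold given with the words at least is a nominal limit, defined under the processing, and rests on no detection limit. A gene was read from its brightest probe, and a change (log2 fold change ± standard error, n = 2 arrays against 2) was called up- or down-regulated where limma gave an adjusted p under 0.05 and the fold was above 2. Intensity is RNA per unit of total RNA, so fewer expressing cells and less RNA per cell cannot be told apart.

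The arrays were checked first. TIA1 KO replicate 1 stood apart: its median spot intensity was 458, against 218 for its replicate, 152 and 140 for WT and 136 and 119 for TIAR KO. It had 16021 probes well above background, the fewest of the 6, where the others had 19996 to 26295. Tial1 read 13.22 on WT replicate 2 (the spot of WT replicate 1 was left out as an outlier), 14.07 and 13.69 (TIA1 KO), and 9.57 and 11.60 (TIAR KO). Its change in TIAR KO MEF was -2.63 ± 0.87 (adjusted p = 0.200), and that of its second probe was -1.58 ± 0.26 (adjusted p = 0.0254). Tia1 read 10.72 and 8.54 (WT), 7.87 and 8.44 (TIA1 KO) and 9.56 and 9.58 (TIAR KO), with a change of -1.47 ± 0.79 in TIA1 KO MEF (adjusted p = 0.288). Its other probes changed by -1.62 (adjusted p = 0.116) and, on a probe well above background on TIA1 KO replicate 2 alone, in the other direction, to at least 1.82-fold above WT (adjusted p = 0.149). Loss of Tia1 RNA thus did not pass the test on any probe, although both TIA1 KO arrays were below both WT arrays on the brightest. Tia1 still read well above background on 1 of the 2 TIA1 KO arrays, and Tial1 on both TIAR KO arrays. Whether these probes lie in the deleted part of either gene is not given in the sources used here. By western blot and RT-PCR, the study itself reported that each knockout MEF lacked the protein and mRNA of its deleted gene.

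Fibroblast markers were not evenly present. Vim was high on all 6 arrays (17.24 to 17.89), but Lum was not well above background on any, Pdgfra on neither WT array and Thy1 on neither TIA1 KO array. Of 10 markers, 9 were well above background on both TIAR KO arrays, 8 on both TIA1 KO arrays, and 7 and 8 on the WT arrays. The summed marker intensity was 327517 and 308312 for WT, with Vim the most abundant, against 1270405 and 1241896 for TIA1 KO and 1091727 and 1073664 for TIAR KO, with Col1a2 the most abundant. Against WT MEF, 7 of the 10 markers were up-regulated in TIA1 KO and 8 in TIAR KO cells, where 2.18% and 3.39% of all probes were. The hepatocyte marker Alb, the leukocyte marker Ptprc and the endothelial marker Cdh5 were not well above background on any array. Of 7 epithelial markers, 4 and 4 (WT), 2 and 4 (TIA1 KO) and 5 and 5 (TIAR KO) were well above background, led by Krt19, with summed intensities of 5709 and 5904, 10832 and 11432, and 8769 and 8122. Of 6 macrophage markers, 3 were above it on every array but TIA1 KO replicate 1, which had 2, led by Itgam, with sums of 6734 and 4849, 15276 and 12730, and 8002 and 7803. Of 5 endothelial markers, 1 to 3 were, led by Kdr, with sums of 2922 to 3862, and of 5 hepatocyte markers 0 or 1, with sums of 679 to 945. Up-regulated among these against WT were Krt8 and Krt19 (1.23 and 1.05) and the macrophage marker Itgam (3.53-fold) in TIA1 KO MEF, and Krt8 (1.23), Krt18 (6.59-fold), Cdh1 (at least 2.53-fold) and the hepatocyte marker Afp (2.47-fold) in TIAR KO MEF. A dimmer probe of the endothelial marker Kdr, well above background in TIAR KO MEF alone, was also called there (at least 2.33-fold above WT, adjusted p = 0.00708). Dimmer Itgam probes, well above background on neither TIA1 KO array, were lower there than in WT MEF and not called (adjusted p = 0.327 and 0.0903). The part of these marker differences in the changes below was not tested.

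Of the 35 genes, 20 were well above background on all 6 arrays and 7 (Gpx3, Gpx5, Gpx6, Gpx7, Gsta2, Gstk1 and Gstt4) on none. In TIA1 KO MEF 4 genes were up-regulated (Mgst1, Mgst2, Gsta4, Gsta3) and 3 were down-regulated (Gstm4, Gstt2, Gstm1). Counted by probe, 5 were up- and 4 down-regulated, 17.0% of the 53, where 3.54% of all probes were called in this comparison (2.18% up and 1.36% down). When arrays were scaled to a common median instead, 5 member probes were up- and 23 down-regulated. Of all probes 28.4% were then called (1876 up and 13925 down), with their median at -0.67. In TIAR KO MEF 6 genes were up-regulated (Mgst1, Gstt1, Mgst2, Gstm6, Gsto2, Gstm1) and Gstt2 was down-regulated. By probe, 8 were up- and 1 down-regulated, again 17.0%, where 5.76% of all probes were called (3.39% up and 2.37% down). With the same restriction 8 of 39 member probes were up and 1 down, where 13.2% of all such probes were called. Mgst1, Mgst2 and Gstt2 were called in the same direction against WT in both knockouts, and Gstm1 in opposite directions on its brightest probe, whose upward call in TIAR KO MEF its other probe did not share. Both comparisons use the WT arrays. Compared directly, TIAR KO MEF had 7 member probes higher and 1 lower than TIA1 KO MEF (15.1%), where 3.35% of all probes were called (1.72% higher and 1.63% lower). With the same restriction 12 of 38 member probes were higher and 2 lower, where 12.2% of all such probes were called. With a common median, and no restriction, 24 member probes were higher and 1 lower. Of all probes 14.9% were then called (7242 higher and 1065 lower), with their median at 0.63. With the replicate number as a block, 0 and 0 member probes and 0% of all probes were called. The median change of the 35 genes was 0.05 without TIA1 and 0.21 without TIAR, beside medians of -0.09 and -0.02 over all probes.

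**Figure D1:**
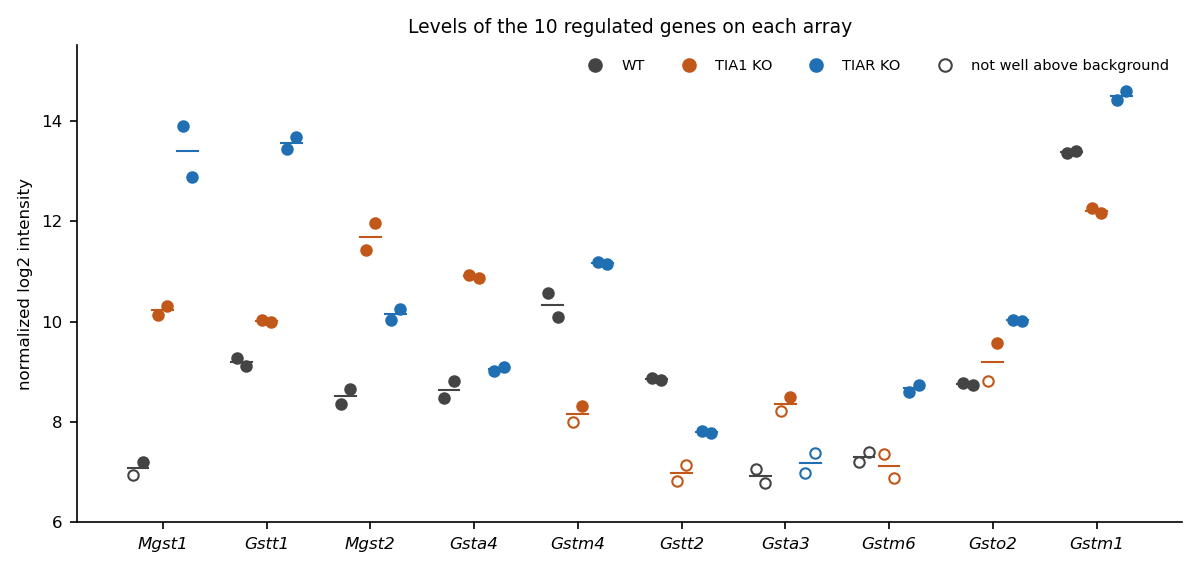
Normalized log2 intensity (y axis) of the 10 genes called in any comparison, brightest probe, on each of the 6 arrays. Points are arrays, horizontal lines are group means of 2 arrays and open points were not well above background. Mgst1 sits between 6.95 and 7.20 in WT MEF and between 12.88 and 13.91 in TIAR KO MEF.

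In TIA1 KO MEF the largest changes of the 35 genes were those of the membrane-bound transferases Mgst2 and Mgst1, and in TIAR KO MEF that of Mgst1, followed by the soluble Gstt1. Mgst1, which lies in the endoplasmic reticulum and the outer mitochondrial membrane and acts on reactive lipids, read 6.95 and 7.20 (WT), 10.14 and 10.31 (TIA1 KO) and 13.91 and 12.88 (TIAR KO) (probe at chr6:138104846-138104905, mm9, plus strand). The 3 groups did not overlap, and WT MEF were near background, with 1 of 2 arrays well above it. Mgst1 was 8.88-fold higher than WT in TIA1 KO MEF (3.15 ± 0.18, adjusted p = 0.00807) and 79.7-fold higher in TIAR KO MEF (6.32 ± 0.35, adjusted p = 0.000832). TIAR KO MEF exceeded TIA1 KO MEF by 3.17 ± 0.39 (adjusted p = 0.0380), a call lost in the authors' own log2 values (3.27, adjusted p = 0.0554). Its second, dimmer probe was called the same way in all 3 comparisons. As it was well above background on neither WT array, it gives limits of at least 3.91-fold (TIA1 KO) and 66.1-fold (TIAR KO) against WT, and the knockouts differed by 4.08 on it.

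Mgst2, a relative that can make leukotriene C4 from leukotriene A4 and glutathione, read 8.36 and 8.67 (WT), 11.42 and 11.96 (TIA1 KO) and 10.04 and 10.25 (TIAR KO) (chr3:51486449-51486508, mm9, plus strand). Here TIA1 KO MEF were the highest group, again with no overlap. The change was 3.18 ± 0.26 in TIA1 KO MEF (9.04-fold, adjusted p = 0.0168) and 1.63 ± 0.18 in TIAR KO MEF (3.1-fold, adjusted p = 0.00697). The direct difference of -1.55 ± 0.25 did not pass the test (adjusted p = 0.0620). Mgst3, the third gene of the class, read 11.99 and 12.23 (WT), 12.74 and 12.81 (TIA1 KO) and 12.46 and 11.60 (TIAR KO), and was not called.

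Since Mgst1 and Mgst2 were called upward in both knockouts, the 250 bases before their starts are shown, from RefSeq on GRCm38.p6 (Mgst1 at chr6:138140277-138140526, the first of its starts; Mgst2 at chr3:51660929-51661178; both plus strand). Capitals mark TGACNNNGC, the core of the antioxidant response element that NRF2 binds, searched on both strands.
Mgst1: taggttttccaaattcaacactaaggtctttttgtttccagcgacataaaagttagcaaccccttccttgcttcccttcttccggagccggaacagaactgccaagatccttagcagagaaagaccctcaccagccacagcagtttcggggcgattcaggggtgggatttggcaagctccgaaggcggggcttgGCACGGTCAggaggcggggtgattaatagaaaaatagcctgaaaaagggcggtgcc
Mgst2: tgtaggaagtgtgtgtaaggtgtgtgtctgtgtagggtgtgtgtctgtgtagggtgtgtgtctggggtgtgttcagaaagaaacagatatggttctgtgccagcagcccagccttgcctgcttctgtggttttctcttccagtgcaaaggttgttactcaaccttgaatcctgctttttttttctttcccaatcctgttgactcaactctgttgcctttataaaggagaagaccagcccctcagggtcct
The match before Mgst1 lies on the opposite strand, 47 bases from the start, and the letters occur neither before Mgst2 nor before a second Mgst1 start of the table (chr6:138141337-138141586). In windows of 300 bases (250 before the start and 50 after), 12.4% of 32851 windows of the genome table held the motif, and 5 of 43 windows of the glutathione genes did (11.6%). Those windows belonged to Gclm, Gsta3, Gstm5, Gstm7 and Mgst1. Of these 5 genes, Mgst1 and Gsta3 (well above background on 1 array) were called in TIA1 KO MEF, and Mgst1 in TIAR KO MEF. Against WT, 7 of the 35 genes were called in each knockout. Over all genes, each read from its brightest probe, 4.95% and 7.19% were. Gclm, Gstm5 and Gstm7 were called in no comparison. A link between motif and change was not tested. Windows were found for 31 of the 35 genes, without Gclc, Gsr, Gsta4 and Gstt2.

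**Figure D2:**
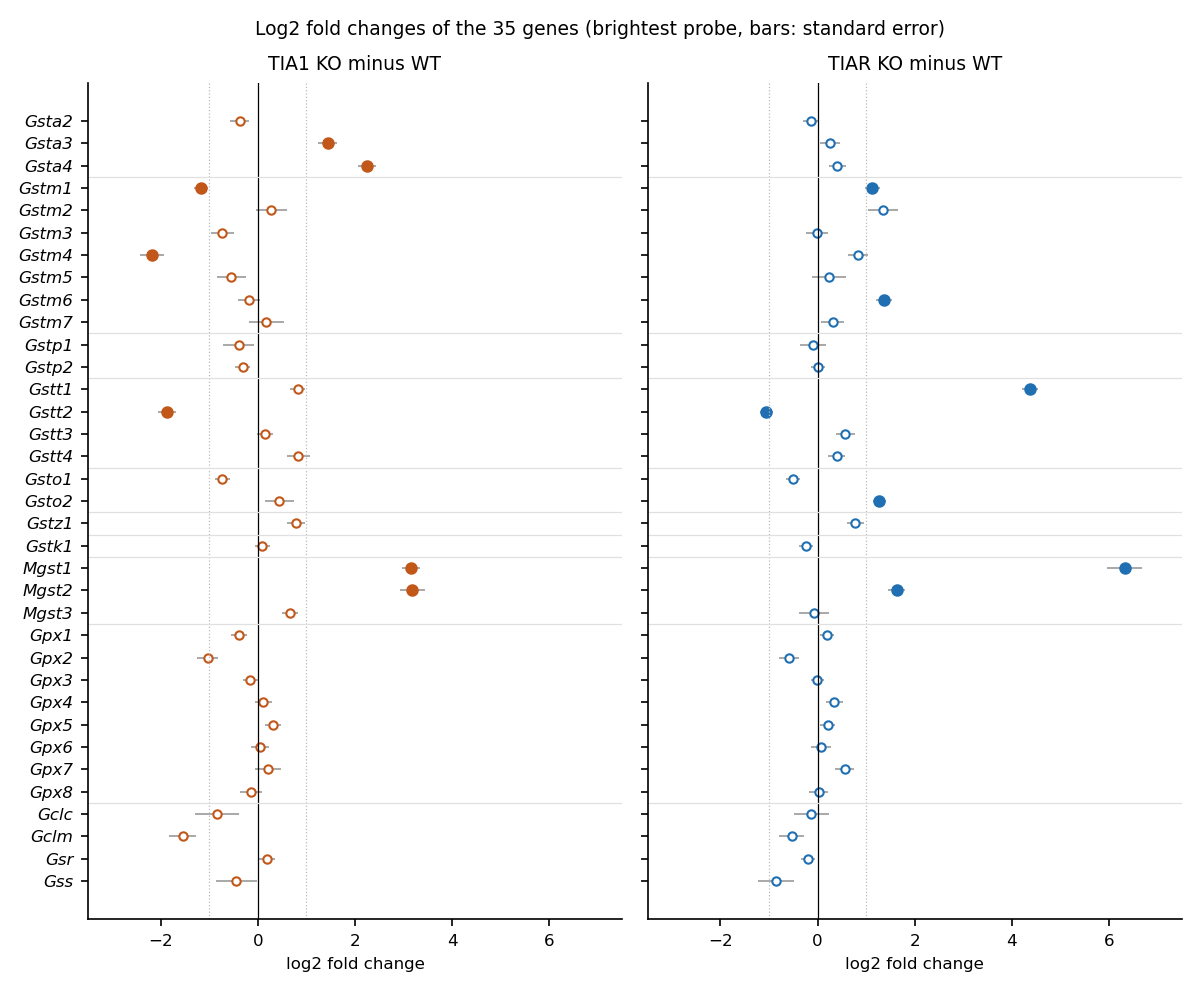
Log2 fold change (x axis) against WT MEF of each of the 35 genes, brightest probe, with standard errors as bars, in TIA1 KO MEF (left) and TIAR KO MEF (right), ordered by class. Filled points passed the test and dotted lines mark a fold of 2. The filled points lie among the alpha, mu, theta, omega and MGST classes, and none among the GPX genes or Gclc, Gclm, Gsr and Gss.

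Of the 3 alpha genes, Gsta4 and Gsta3 were up-regulated in TIA1 KO MEF. Gsta4, which conjugates 4-hydroxynonenal, a product of lipid peroxidation, read 8.48 and 8.81 (WT), 10.94 and 10.87 (TIA1 KO) and 9.01 and 9.10 (TIAR KO) (chr9:78046172-78047344, mm9, plus strand; the probe spans an intron). The TIA1 KO arrays lay above all 4 others. Gsta4 was up-regulated 4.78-fold in TIA1 KO MEF (2.26 ± 0.19, adjusted p = 0.0173), its change in TIAR KO MEF was 0.41 ± 0.17 (adjusted p = 0.282), and TIAR KO MEF were 3.6-fold below TIA1 KO MEF (adjusted p = 0.0177). Gsta3 read 7.06 and 6.79 (WT), 8.22 and 8.51 (TIA1 KO) and 6.99 and 7.38 (TIAR KO), and was well above background on TIA1 KO replicate 2 alone. Its level in TIA1 KO MEF was at least 2.60-fold higher than in WT MEF (change 1.44 ± 0.20, adjusted p = 0.0460), setting WT arrays no lower than the lowest signal rated above background. The call was lost in the authors' log2 values (adjusted p = 0.0682). A second Gsta3 probe, below background on all 6 arrays, changed by -0.06 in TIA1 KO MEF and was not called. Gsta2 was not well above background on any array.

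The 7 mu genes form 1 cluster on chromosome 3, where 17 of their 18 probes span 145.7 kb. In this class the knockouts differed from each other for Gstm4 and Gstm1. Gstm4 read 10.58 and 10.10 (WT), 8.01 and 8.32 (TIA1 KO) and 11.18 and 11.15 (TIAR KO) (chr3:107846495-107846847, mm9, minus strand), with no overlap between groups. The probe was well above background on 1 of the 2 TIA1 KO arrays. It was down-regulated 4.52-fold in TIA1 KO MEF (-2.18 ± 0.24, adjusted p = 0.0318), its change in TIAR KO MEF was 0.83 ± 0.20 (adjusted p = 0.0792), and TIAR KO MEF exceeded TIA1 KO MEF 8.02-fold (3.003 ± 0.18, adjusted p = 0.00979). Its second probe, well above background on neither TIA1 KO array, was not called, with a level at least 1.40-fold below WT without TIA1 and a change of 0.32 without TIAR.

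Gstm1 had 2 probes with different values. On the brighter one, WT MEF read 13.37 and 13.39, TIA1 KO MEF 12.26 and 12.16 and TIAR KO MEF 14.41 and 14.60. That probe was called in all 3 comparisons: -1.17 ± 0.15 in TIA1 KO MEF (adjusted p = 0.0414), 1.13 ± 0.15 in TIAR KO MEF (adjusted p = 0.0130) and 2.29 ± 0.17 between the knockouts (adjusted p = 0.0136). In the authors' log2 values its call in TIA1 KO MEF was lost (-1.20, adjusted p = 0.0526). The scanner files place it outside the cluster, at chr5:117082490-117082549 (mm9, minus strand), so its identity as Gstm1 is uncertain. The probe placed in the cluster (chr3:107815595-107815654) read 13.20 and 13.44 (WT), 11.34 and 10.85 (TIA1 KO) and 13.93 and 13.22 (TIAR KO). On it, Gstm1 was down-regulated 4.67-fold in TIA1 KO MEF (-2.22, adjusted p = 0.0289), while the change in TIAR KO MEF was 0.25 (adjusted p = 0.698). The knockouts differed by 2.48 (adjusted p = 0.0443). The fall in TIA1 KO MEF was thus called on both probes, and the rise in TIAR KO MEF on the probe placed on chromosome 5 alone.

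Mu transcripts are close relatives, and some probes cover matching stretches. Of 1352 pairs of probes of different member genes, 6 shared 30 or more bases in a common alignment, 5 of them between mu genes. The ends of the coding sequences of Gstm1 and Gstm2, as carried by the Gstm1 probe of chromosome 3 and a Gstm2 probe at chr3:107784948-107785007, are shown because the pair gave different changes. Capitals mark the bases that differ, 13 of 41.
Gstm1: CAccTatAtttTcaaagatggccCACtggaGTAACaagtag
Gstm2: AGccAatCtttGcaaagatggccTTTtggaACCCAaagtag
This Gstm2 probe changed by 0.24 in TIA1 KO MEF, where the Gstm1 probe was called at -2.22, and by 1.47 in TIAR KO MEF without passing the test. The brightest Gstm2 probe read 13.04 and 13.85 (WT), 13.69 and 13.75 (TIA1 KO) and 14.58 and 15.00 (TIAR KO). Its change in TIAR KO MEF was 1.35 ± 0.31 (adjusted p = 0.0706), and 1 of the 3 Gstm2 probes, with a change of 1.02, was called there (adjusted p = 0.0206). Hybridization of a probe to a related mu transcript was not tested.

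The brightest Gstm6 probe was well above background in TIAR KO MEF alone, with 8.60 and 8.74 there, against 7.20 and 7.41 (WT) and 7.36 and 6.89 (TIA1 KO). It was at least 2.58-fold higher in TIAR KO than in WT MEF (change 1.37 ± 0.16, adjusted p = 0.00812). Another of its 5 probes, well above background on neither TIA1 KO array, was called at least 1.77-fold higher in TIAR KO MEF than there (adjusted p = 0.0454). The other 3 were called in no comparison, and 1 of them was well above background on TIA1 KO replicate 2 alone. Gstm3, Gstm5 and Gstm7 were called in no comparison, with changes between -0.73 and 0.17 in TIA1 KO MEF and between -0.01 and 0.31 in TIAR KO MEF. Of the 7 mu genes, 0 were called upward and 2 downward in TIA1 KO MEF, and 2 upward and 0 downward in TIAR KO MEF, where Gstm1 rests on the probe of uncertain identity. Over all probes, 2.18% were called upward and 1.36% downward without TIA1, against 3.39% and 2.37% without TIAR. The direct difference had a median of 1.07 over the 7 genes.

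**Figure D3:**
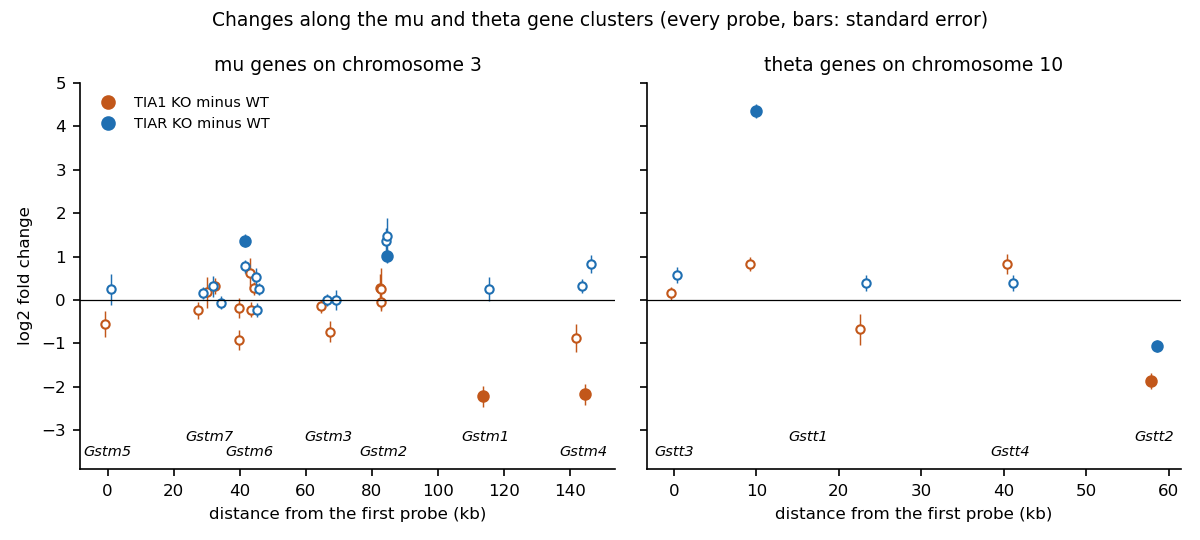
Log2 fold change against WT MEF (y axis, bars are standard errors) of every mu probe on chromosome 3 (left) and every theta probe on chromosome 10 (right), by distance from the first probe in kb (x axis). Filled points passed the test. The called mu falls in TIA1 KO MEF are a Gstm1 probe and 1 of the 2 Gstm4 probes, toward one end of the cluster, the called theta fall is Gstt2, and Gstt1 and Gstt2, 48.6 kb apart, were called in opposite directions in TIAR KO MEF.

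The theta genes lie together on chromosome 10, over 58.3 kb. Gstt1, which acts on small halogenated compounds, read 9.27 and 9.12 (WT), 10.04 and 10.00 (TIA1 KO) and 13.44 and 13.68 (TIAR KO) (chr10:75246560-75246619, mm9, minus strand). It was up-regulated 20.6-fold in TIAR KO MEF (4.37 ± 0.16, adjusted p = 0.000324), and TIAR KO MEF exceeded TIA1 KO MEF 11.6-fold (adjusted p = 0.00796). In TIA1 KO MEF the change was 0.83 ± 0.15 (adjusted p = 0.0790) and turned to -0.50 when arrays were scaled to a common median. A dimmer probe at chr10:75259864-75259923 changed by 0.38 in TIAR KO MEF and was not called, so the rise was carried by 1 of 2 probes.

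Gstt2, a neighbouring theta gene, moved the other way. It read 8.87 and 8.83 (WT), 6.83 and 7.15 (TIA1 KO) and 7.82 and 7.78 (TIAR KO). Both knockouts lay below WT MEF, and on neither TIA1 KO array was the probe well above background. Gstt2 was down-regulated, by at least 2.40-fold in TIA1 KO MEF (-1.86 ± 0.18, adjusted p = 0.0241) and by 2.08-fold in TIAR KO MEF (-1.06 ± 0.14, adjusted p = 0.0128). The call in TIAR KO MEF was lost without loess. It was also lost whichever array was left out, though the change stayed between -1.08 and -1.03. Gstt3 read 11.14 and 11.08 (WT), 11.18 and 11.35 (TIA1 KO) and 11.47 and 11.91 (TIAR KO), and was not called.

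Among the remaining soluble classes, Gsto2 was the single gene called. The omega enzymes reduce dehydroascorbate. Gsto2 read 8.78 and 8.73 (WT), 8.82 and 9.58 (TIA1 KO) and 10.04 and 10.01 (TIAR KO) (chr19:47960702-47960761, mm9, plus strand), and was up-regulated 2.41-fold in TIAR KO MEF (1.27 ± 0.14, adjusted p = 0.00679). Gsto1 read 16.84 and 16.78 (WT), 15.996 and 16.18 (TIA1 KO) and 16.30 and 16.31 (TIAR KO), below WT on all 4 knockout arrays, without passing the test (adjusted p = 0.0961 and 0.108). Gstz1, which is the maleylacetoacetate isomerase of tyrosine breakdown, read 11.83 and 11.47 (WT), 12.43 and 12.44 (TIA1 KO) and 12.45 and 12.39 (TIAR KO). It was above WT on all 4 knockout arrays and was not called (adjusted p = 0.108 and 0.0667). Gstk1, the mitochondrial and peroxisomal kappa enzyme, read 7.01 to 7.44 over the 6 arrays and was not well above background on any.

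The pi genes Gstp1 and Gstp2 were well above background on all 6 arrays and were called in no comparison. Gstp2 read 16.46 and 16.50 (WT), 16.16 and 16.17 (TIA1 KO) and 16.49 and 16.49 (TIAR KO), with a change of -0.31 ± 0.15 and 0.01 ± 0.14. Their transcripts are closely related, as the stretch shared by a Gstp1 probe (chr19:4035908-4036723, across an intron) and a Gstp2 probe (chr19:4040983-4041042; both mm9, minus strand) shows. Capitals mark the 5 differing bases of 35.
Gstp1: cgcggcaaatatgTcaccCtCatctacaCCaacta
Gstp2: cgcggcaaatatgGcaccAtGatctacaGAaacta
The 4 pi probes changed by -0.40 to -0.22 in TIA1 KO MEF and by -0.22 to 0.08 in TIAR KO MEF. Which of the 2 genes each value reads is uncertain, and hybridization of a probe to both was not tested.

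None of the 8 glutathione peroxidases was called in any of the 3 comparisons, in which 3.54%, 5.76% and 3.35% of all probes were called, so 0 of 8 does not set the class apart. Gpx4, which reduces lipid hydroperoxides inside membranes, read 16.84 and 17.12 (WT), 17.03 and 17.16 (TIA1 KO) and 17.43 and 17.23 (TIAR KO). It changed by 0.12 ± 0.18 without TIA1 and by 0.35 ± 0.17 without TIAR (adjusted p = 0.681 and 0.359). Gpx1, the cytosolic enzyme, and Gpx8, of the endoplasmic reticulum, were also well above background on all 6 arrays, with changes between -0.39 and 0.20. Gpx2 was well above background on the WT arrays alone (8.06 and 7.61) and was not called in TIA1 KO MEF (-1.03 ± 0.22, at least 1.31-fold below WT, adjusted p = 0.0902) or in TIAR KO MEF (-0.59 ± 0.21, at least 1.45-fold below WT, adjusted p = 0.209). The unadjusted p was under 0.05 for Gpx2 in both comparisons with WT, for Gpx7 in TIAR KO MEF and for Gpx1 between the knockouts, where 27.8% (TIA1 KO against WT), 20.2% (TIAR KO against WT) and 22.6% (direct) of all probes had one. With arrays scaled to a common median, Gpx4 was called downward in TIA1 KO MEF (-1.38), as were 13925 of all 55681 probes.

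None of the 4 genes of synthesis and recycling was called in any comparison either, and at these shares 0 of 4 does not set them apart. Gclm read 11.55 and 10.87 (WT), 9.69 and 9.64 (TIA1 KO) and 10.81 and 10.54 (TIAR KO). All 4 knockout arrays lay below both WT arrays, with a change of -1.55 ± 0.27 in TIA1 KO MEF (adjusted p = 0.0731; unadjusted p = 0.00407) and -0.54 ± 0.26 in TIAR KO MEF (adjusted p = 0.353). Gclc read 12.92 and 11.90 (WT), 11.96 and 11.19 (TIA1 KO) and 12.50 and 12.07 (TIAR KO). The groups overlapped, and the WT arrays differed from each other by more than the change in TIA1 KO MEF (-0.84 ± 0.46). Gss read 12.12 and 11.01 (WT) and 11.27 and 10.97 (TIA1 KO), and its mean in TIAR KO MEF was 10.703 ± 0.0034 (SD, n = 2), with changes of -0.45 ± 0.42 and -0.86 ± 0.37. Gsr read 14.27 and 14.39, 14.42 and 14.60, and 14.11 and 14.16 in the same order, and its changes were 0.18 ± 0.16 and -0.20 ± 0.14. On the brightest probes of these 4 genes, Gclm alone had an unadjusted p under 0.05, in TIA1 KO MEF and between the knockouts. A second Gsr probe changed by 0.795 in TIA1 KO MEF (adjusted p = 0.121; unadjusted p = 0.018) and by 0.41 in TIAR KO MEF, the latter opposite in sign to the brightest. With arrays scaled to a common median, the brightest probes of all 4 were called downward in TIA1 KO MEF. Their changes were -2.39 (Gclc), -2.87 (Gclm), -1.91 (Gss) and -1.40 (Gsr). Under that scaling, 13925 of all 55681 probes were called downward there.

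Genes around the pathway were read from 5 lists chosen by function. When only probes well above background were kept, the median change of all of them was -0.26 without TIA1 and -0.05 without TIAR. The list medians are to be read beside these values, and whether any list differed from them was not tested. In the list of glutathione supply and turnover, of 20 genes 0 rose and 3 fell in TIA1 KO MEF, while 1 rose and 4 fell in TIAR KO MEF, with median changes of -0.50 and -0.16. For these lists the shares called over all 34797 genes, each read from its brightest probe and adjusted over genes, were 4.95% in TIA1 KO MEF, 7.19% in TIAR KO MEF and 4.52% between the knockouts, beside 3.54%, 5.76% and 3.35% of all probes. Anpep, aminopeptidase N, which can split the cysteinylglycine left when glutathione is broken down outside the cell, read 12.49 and 12.47 (WT), 13.10 and 13.31 (TIA1 KO) and 8.64 and 7.79 (TIAR KO). It was down-regulated 19.1-fold in TIAR KO MEF (-4.26 ± 0.29, adjusted p = 0.00159) and was 31.6-fold lower there than in TIA1 KO MEF (adjusted p = 0.0120). Chac1, which degrades glutathione inside the cell, read 15.58 and 15.84 (WT), 14.53 and 14.64 (TIA1 KO) and 14.20 and 13.96 (TIAR KO), and fell by 1.63 (± 0.17, adjusted p = 0.00645) in TIAR KO MEF. Cth, cystathionine gamma-lyase, which supplies cysteine, read 12.18 and 12.58 (WT), 11.43 and 11.68 (TIA1 KO) and 10.92 and 10.78 (TIAR KO), and fell there by 1.53 (± 0.19, adjusted p = 0.0105). Both genes were below WT on all 4 knockout arrays. Ggct, a gamma-glutamyl cyclotransferase, read 11.79 and 11.65 (WT), 10.63 and 10.61 (TIA1 KO) and 10.495 and 10.72 (TIAR KO), and was down-regulated in both knockouts (-1.10 and -1.11). Abcc1, an exporter of glutathione conjugates, read 13.16 and 12.99 (WT), 11.79 and 11.89 (TIA1 KO) and 12.98 and 13.10 (TIAR KO), a change of -1.24 ± 0.16 in TIA1 KO MEF (adjusted p = 0.0423). Oplah, the 5-oxoprolinase, read 10.36 and 10.36 (WT), 9.05 and 9.29 (TIA1 KO) and 10.38 and 10.34 (TIAR KO), a change of -1.19 ± 0.17 in TIA1 KO MEF (adjusted p = 0.0492). For both, the TIA1 KO arrays lay below the other 4. In the authors' log2 values the calls in TIA1 KO MEF of Ggct, Abcc1 and Oplah were lost (adjusted p = 0.0581, 0.0623 and 0.130). The gene called upward in TIAR KO MEF was Dpep1, a membrane dipeptidase named after its value was seen, which was well above background on neither WT array and at least 2.35-fold higher in TIAR KO MEF (adjusted p = 0.0144).

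Of 20 genes of the thioredoxin, peroxiredoxin, catalase and superoxide dismutase systems, 0 rose and 2 fell in TIA1 KO MEF (median -0.27), and 1 rose and 1 fell in TIAR KO MEF (median -0.24). Sod3, the extracellular superoxide dismutase, read 12.55 and 12.67 (WT), 8.70 and 9.42 (TIA1 KO) and 10.09 and 9.37 (TIAR KO). It was down-regulated in both knockouts, with changes of -3.54 ± 0.29 (adjusted p = 0.0169) and -2.88 ± 0.26 (adjusted p = 0.00379), of which the first was no longer called in the authors' log2 values (adjusted p = 0.0682). Srxn1, which restores oxidized peroxiredoxins, read 14.29 and 14.28 (WT), 13.01 and 13.01 (TIA1 KO) and 13.86 and 13.68 (TIAR KO), and changed by -1.27 ± 0.15 in TIA1 KO MEF (adjusted p = 0.0334). Its TIA1 KO arrays were the lowest of the 6. Prdx2, a cytosolic peroxiredoxin, read 15.32 and 15.37 (WT), 16.003 and 15.87 (TIA1 KO) and 16.44 and 16.48 (TIAR KO), above WT on all 4 knockout arrays, and was called in TIAR KO MEF (1.11 ± 0.14, adjusted p = 0.0109).

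Of 25 regulators and targets of NRF2, the transcription factor of the antioxidant response, 1 rose and 3 fell in TIA1 KO MEF (median -0.38) and 1 rose and 2 fell in TIAR KO MEF (median -0.21). Ephx1, the microsomal epoxide hydrolase, read 14.39 and 14.74 (WT), 16.43 and 16.61 (TIA1 KO) and 16.48 and 16.41 (TIAR KO). It was up-regulated 3.88-fold and 3.68-fold (adjusted p = 0.0260 and 0.00416). Maff, a small Maf partner of NRF2, read 12.76 and 12.78 (WT), 10.78 and 11.05 (TIA1 KO) and 11.38 and 11.82 (TIAR KO), and was down-regulated in both knockouts (-1.86 ± 0.17 and -1.17 ± 0.19). Cbr1, a carbonyl reductase, read 12.75 and 12.92 (WT), 12.13 and 12.27 (TIA1 KO) and 11.48 and 11.85 (TIAR KO), and was down-regulated in TIAR KO MEF (-1.17 ± 0.19). Srxn1 and Abcc1 completed the 3 falls in TIA1 KO MEF. Between the knockouts, 2 genes of the list were called, Abcc1 and Pgd of the pentose phosphate pathway, both higher in TIAR KO MEF (1.196 and 1.44), though neither in the authors' log2 values (adjusted p = 0.0646 and 0.0566). Pgd read 13.08 on WT replicate 2 (the other WT spot was left out as an outlier), 11.95 and 11.84 (TIA1 KO) and 13.19 and 13.48 (TIAR KO). Nfe2l2, which encodes NRF2, read 13.56 and 13.59, 13.13 and 13.33, and 13.22 and 13.49 in WT, TIA1 KO and TIAR KO MEF. Neither it nor the target genes Nqo1 and Hmox1 were called.

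Of 21 glutathione-using enzymes outside the families, 0 were called in TIA1 KO MEF (median 0.06). An unadjusted p under 0.05 was found there for 7 of them, beside 27.8% of all probes. In TIAR KO MEF (median 0.12), 1 was called, Ethe1, the mitochondrial persulfide dioxygenase, which read 13.88 and 13.46 (WT), 13.95 and 13.93 (TIA1 KO) and 12.340 and 12.44 (TIAR KO), a change of -1.28 ± 0.19 (adjusted p = 0.0186). It was also lower in the direct comparison, as was the glutaredoxin Glrx (-1.19; not called in the authors' log2 values, adjusted p = 0.0593), which read 11.88 and 12.06 (WT), 13.02 and 13.12 (TIA1 KO) and 11.89 and 11.89 (TIAR KO). Ptges, a prostaglandin E synthase of this list, was not called on its brightest probe (-0.01 in TIA1 KO MEF). A dimmer one, well above background on neither TIA1 KO array, was called at least 9.61-fold below WT there (adjusted p = 0.015). In TIAR KO MEF that probe was also called below WT (-1.22, adjusted p = 0.0446), and at least 4.12-fold above TIA1 KO MEF (adjusted p = 0.013). Of 17 genes of the selenoprotein machinery, 0 were called in TIA1 KO MEF (median -0.29), where 7 had an unadjusted p under 0.05 beside the same 27.8% of all probes, and in TIAR KO MEF (median -0.07) 2 were called. Scly, the selenocysteine lyase, read 10.88 and 11.07 (WT), 11.70 and 11.53 (TIA1 KO) and 12.42 and 12.24 (TIAR KO), and rose by 1.36. Sephs2, the selenophosphate synthetase, read 10.32 and 9.88 (WT), 8.65 and 9.53 (TIA1 KO) and 8.67 and 8.69 (TIAR KO), a change of -1.42. Of the 17, 13 were well above background on all 6 arrays. Over the 5 lists, some dimmer probes were called against WT where the brightest probe of their gene was not. Besides Ptges, these were Selk in TIA1 KO MEF (1.07, adjusted p = 0.0461) and, in TIAR KO MEF, Clic4 (-1.36), Lrp8 (-2.67), Me1 (-1.36), Txn2 (-1.08) and Prdx6 (at least 2.04-fold higher).

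**Figure D4:**
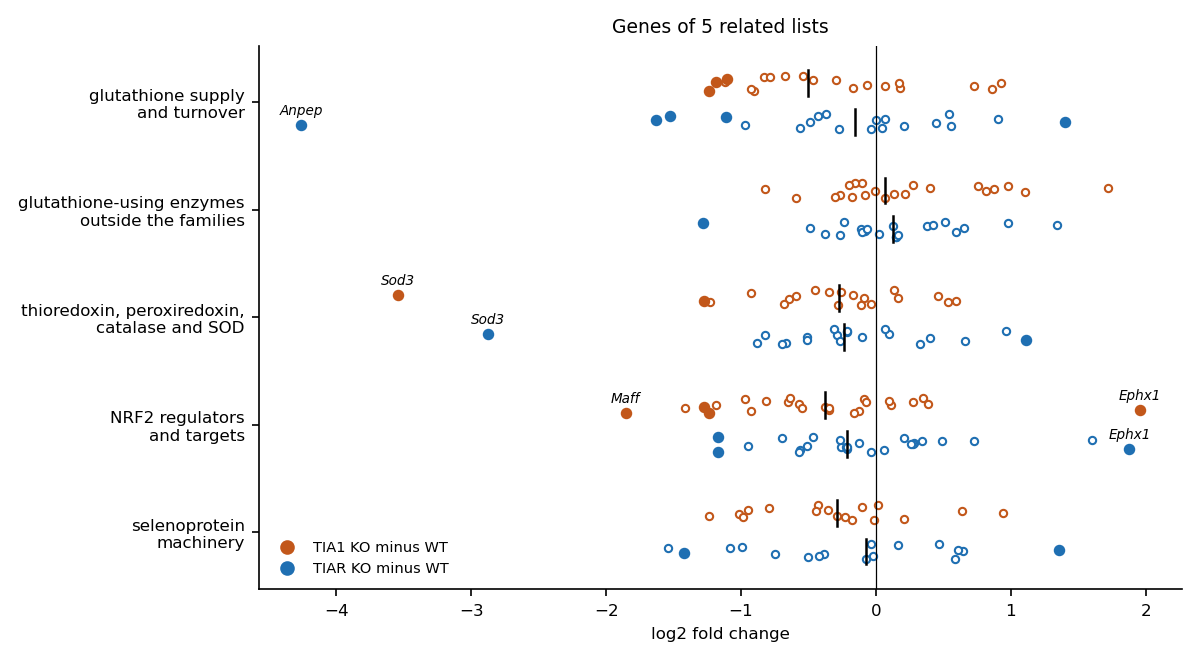
Log2 fold change against WT MEF (x axis) of the genes of 5 lists around the glutathione pathway (rows), brightest probe, in TIA1 KO MEF and TIAR KO MEF. Each point is a gene, filled where it passed the test, and black ticks are medians, from -0.50 for supply and turnover in TIA1 KO MEF to 0.12 for glutathione-using enzymes in TIAR KO MEF.

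Removal of single arrays affected the comparisons unequally. Without WT replicate 1, and likewise without WT replicate 2, 0 of the 53 member probes were called in TIA1 KO MEF, as was the case for all probes of the array, while without TIA1 KO replicate 1 the 7 genes were all called again. In TIAR KO MEF, Mgst1 and Gstt1 were called in each of the 16 alternatives. Gstt2 lost its call there whichever array was left out, with changes of -1.08 to -1.03. Gstm1 lost its call without TIAR KO replicate 2 and without either WT array (1.03 to 1.22), and Gstm6 without TIAR KO replicate 2. Between the knockouts, the calls of all probes of the array, members included, were lost without TIAR KO replicate 1 or without TIAR KO replicate 2. Genes called against WT kept their direction in every alternative in which they were tested. Only alternatives that changed the values (normalization, outlier spots or the authors' table) could have turned it. A changed fit, test or set of probes keeps the fold. The groups of the called member genes did not overlap, so leaving out 1 array could not turn it either.

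**Figure D5:**
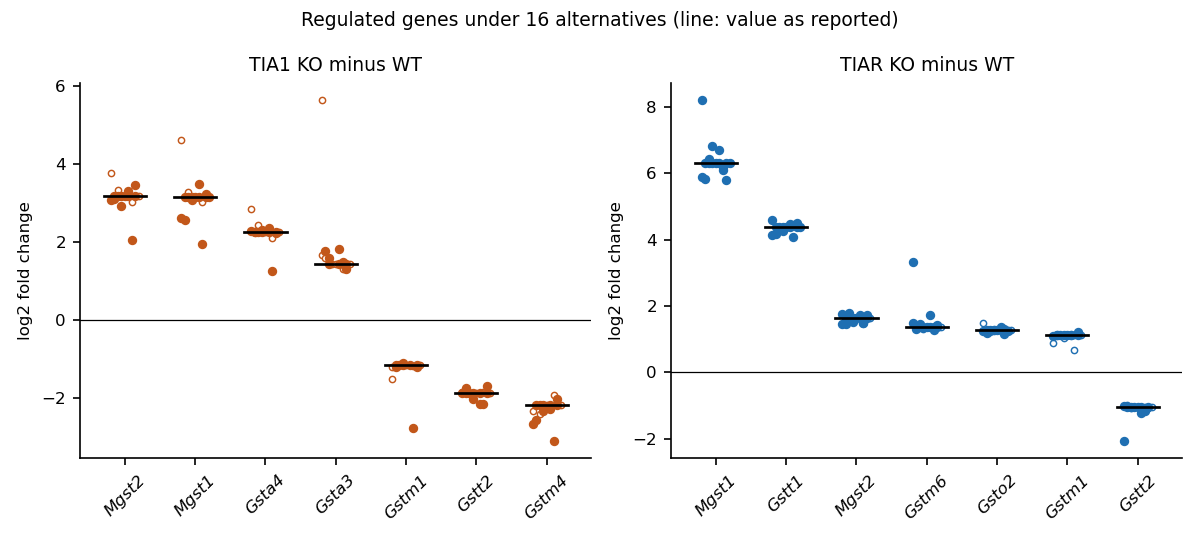
Log2 fold change against WT MEF (y axis) of the genes called in TIA1 KO MEF (left) and TIAR KO MEF (right) under 16 alternative ways to process or test the arrays (15 for Gsta3 in TIA1 KO MEF). Points are alternatives, filled where the gene was called, and black lines are the values reported. Mgst1 ranged from 1.95 to 4.61 in TIA1 KO MEF and from 5.80 to 8.20 in TIAR KO MEF, always above 0. Alternatives that change only the fit, the test or the set of probes keep the fold.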

How the data were processed

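Agilent one-colour arrays measured RNA of the 3 kinds of MEF, 2 arrays a group, from independent samples per the study's methods. The authors deposited, per array, spot intensities on a linear scale with local background and quality flags, from Agilent Feature Extraction 10.7.3.1, not normalized between arrays, and a table of normalized log2 values that correlated at 0.997 to 0.999 with those used here. Probe positions are on mm9, as the scanner software gave them. Mean intensity and median background were corrected by normexp (offset 50), taken to log2, adjusted by 1 loess pass against the mean of 6 arrays and quantile normalized. Control and outlier spots were left out, and spots of 1 probe were averaged. The normexp, log2, loess and quantile steps follow the methods. The methods also name a global normalization by the average gene signal, which was not a separate step here. Leaving out outlier spots was a choice made here, and the authors' table was an alternative. Well above background means that the scanner software flagged 50% or more of a probe's spots on that array so. No probe was removed as dim. The number of arrays limits the precision.

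Each comparison was fitted with limma 3.58.1 (lmFit and eBayes, R 4.3.3) on its own 4 arrays over 55681 probes, two-sided, with Benjamini-Hochberg adjustment over all of them. A probe was called at an adjusted p under 0.05 and a fold above 2. The script was tested on simulated data. Tables and plots used Python 3.11.15, pandas 2.3.3 and matplotlib 3.10.9. Where a probe was not well above background on any array of the dimmer group, the fold is given with the words at least. In that group each array took the larger of the probe's own value and a floor. The floor was the smallest value of any probe flagged as well above background on that array. Probes without the flag can read above it (a dimmer Gstm4 probe read 8.03 on TIA1 KO replicate 2, where the floor was 5.78). The floor is thus no detection limit, and these folds are nominal limits. All 49 member probes with a RefSeq accession matched the GRCm38.p6 gene table under the symbol of the files, and 1 probe outside the rule (BC021614 in the files) is Gstp3 by that table. Promoters came from RefSeq, and probe sequences from the files.

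Values on every array are given for Tia1, Tial1, member genes called in any comparison, Gclc, Gclm, Gsr, Gss and the brightest member of each class. From each list, they are given for up to 3 called genes per comparison with the largest change. For Gss in TIAR KO MEF the mean is given instead, and for Gstk1 the range. Genes outside this rule (Dpep1, Ptges, Gpx1, Gpx2, Gstp1, Nfe2l2, Nqo1, Hmox1 and others) were chosen after values were seen. Of the list genes, 2 had no probe (Ptgds2 and Selt), and 4 (Abcc1, Slc7a11, Srxn1, Txnrd1) stood in more than 1 of the 5 lists. Lists of fibroblast, epithelial, macrophage, endothelial and hepatocyte markers were read per array. Members, lists and tests were chosen with earlier results of these data known.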

Additional observations from a re-analysis of the deposited data

Results flagged for a closer look

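The knockouts differed from each other in 5 member genes by the direct limma test, so their changes against WT MEF differ. TIAR KO MEF were above TIA1 KO MEF by 3.54 on the log2 scale for Gstt1, by 3.17 for Mgst1, by 3.003 for Gstm4 and by 2.29 for Gstm1, and the difference was -1.85 for Gsta4. These calls are lost without TIAR KO replicate 1 and also without TIAR KO replicate 2, as are those of every other probe of the array. With 2 arrays a group, no array could be tested as an outlier.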

How the results depend on the processing

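All 7, 7 and 5 member genes called in TIA1 KO versus WT, TIAR KO versus WT and the direct comparison kept their sign in each alternative in which they were tested, as did the other called genes named from the lists. For the member genes only alternatives that changed the values could have turned a sign, so the others are no evidence of stability. In TIA1 KO versus WT, 5 probes up and 4 down became 0 and 0 with the scanner's processed signal (0% of all tested probes called). They became 1 and 0 when the fold above 2 was itself tested (treat, 0.79%), and 3 up in the authors' table (2.35%). Among probes well above background 3 were up (12.6%), and with a common array median 23 were down (28.4%). The authors' table ended the calls of Gsta3, Gstm1, Abcc1, Ggct, Oplah and Sod3 there, and those of Mgst1, Abcc1, Glrx and Pgd in the direct comparison. Pairing the arrays by replicate number as a block gave 3 and 0, with 1.21% of all probes called. In TIAR KO versus WT, 8 up and 1 down became 3 and 0 with treat (1.82% of all probes called) and 0 down without loess (5.58%). In the direct comparison, 7 up and 1 down became 3 and 0 with the processed signal (2.71% of all tested probes called) and with treat (0.735%). They became 24 up with a common median (14.9%) and 12 and 2 among probes well above background (12.2%). With all 3 groups fitted 3 were down (5.72%), and with an intensity trend 2 were down (3.86%). The replicate block gave 0 and 0 there, with 0% of all probes called. Deviations of same-numbered arrays had correlations of 0.08, 0.03 and -0.07 over all probes. With 2 arrays a group, these cannot settle whether the replicate numbers pair the arrays. Leaving out 1 array gave 0 to 5 up and 0 to 8 down in TIA1 KO versus WT (0 without WT replicate 1 or 2, 8 without TIA1 KO replicate 2), 5 to 8 and 0 to 1 in TIAR KO versus WT, and 0 to 14 and 0 to 3 in the direct comparison (0 without TIAR KO replicate 1 or 2, 14 without TIA1 KO replicate 2). The remaining array of a group was taken to have the spread of the other group. Without TIA1 KO replicate 2, calls over all probes also rose, in both directions, in TIA1 KO versus WT and in the direct comparison. The larger counts given for that fit were thus not confined to member probes. The common median moved the median of all probes to -0.67 in TIA1 KO versus WT and 0.63 in the direct comparison, and the processed signal moved them to 1.98 and -1.84. With the common median, genes whose change in TIA1 KO versus WT was above 0 and not called turned and were called downward: Gsr (-1.40), Gpx4 (-1.38), Gstt3 (-1.34), Gstm2 (-1.32) and Ethe1 (-1.30). The cause was not tested. Signal limits Gsta3, Gstm6, Gstt2, Gpx2, Dpep1 and dimmer probes of Mgst1, Gstm4, Gstt1, Prdx6, Kdr and Ptges, which 1 group or more did not measure above background.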
